A study of Mus musculus with 2 samples.

Results

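Tubulins, stathmins and microtubule-associated proteins form the cytoskeletal set examined here, together with the neuronal intermediate filament genes and Gap43. Members were the probe sets whose annotation gave exactly 1 gene symbol and whose symbol belonged to these families. The rule used names only and no measured value. It found 154 of 34945 probe sets with 1 symbol, for 60 of 18193 genes. The RNA came from Neuro2a cells, a mouse neuroblastoma line, transfected with a non-specific control siRNA in 1 sample and with an siRNA against Tmem132a (mKIAA1583) in the other, a gene of a family of single-pass membrane proteins. Each sample was hybridised to 1 Affymetrix Mouse Genome 430 2.0 array. With 1 array per group no test between the siRNAs was possible, and each difference is given by its size. Strain, passage, dose of siRNA and time after transfection were not given in the sources used here.

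Microtubules are hollow polymers of alpha- and beta-tubulin dimers. They are seeded by the gamma-tubulin complex, grow and shrink mainly at their plus ends, and carry transport along axons and dendrites. Stathmins hold free tubulin dimers and favour shrinkage, lattice-binding microtubule-associated proteins (MAPs) and doublecortins stabilise or bundle the polymer, and end-binding proteins of the Mapre family follow growing tips and recruit the CLIP and CLASP proteins. In neuroblasts, some of these genes and the neurofilament genes belong to the programme of neurite outgrowth.

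Values are MAS5 signals, the array software's linear brightness of a probe set. Ratios are given as log2 of the signal with the Tmem132a siRNA divided by that with the control siRNA. The signal of Tmem132a itself was 1825.5 in control cells and 435.6 where it was targeted (23.9%), which goes with the sample titles, although the description field of the targeted sample repeats the control's wording. Markers of sympathetic neuroblasts, a list chosen for this neuroblastoma line, were present. Of these genes, 13 of 13 with a probe set passed the signal filter, against 10678 of all 18193 genes. Of the genes of other cell types with a probe set, 3 of 10 glial, 3 of 12 fibroblast and mesenchyme, 2 of 10 macrophage and lymphocyte, and 1 of 11 epithelial and endothelial genes passed it. Of the 13 neuroblast markers, 12 had a ratio below 0 (median -0.20), against 48.2% of all genes past the filter (median 0.02). Their summed signal, over the brightest probe set of each gene, went from 62237.7 in control cells to 53348.4 with the Tmem132a siRNA. The member Stmn2 is in this list and made up 16953.2 and 12985.8 of these sums. The same sum was 14291 and 5375.5 for the fibroblast and mesenchyme list, of which Acta2 made up 10520.2 and 2712.7. For the glial, macrophage and epithelial lists the sums were 1410.7, 456.6 and 295.4 in control cells, and 1399, 722.1 and 481.9 with the Tmem132a siRNA. Most genes of these lists did not pass the filter, so these sums include many dim signals and are not compared.

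Dim probe sets were set aside by a signal filter, a mean of the paired signals of at least 77.25, which is the median over the table. Of the 154 member probe sets 99 passed, and 48 of the 60 genes had a value, the mean log2 ratio of their probe sets. The 12 genes without a value were Tuba3b, Tubb1, Tubb2a-ps2 (a pseudogene that the name rule takes in), Tubb4a, Map7, Dclk3, Dcx, Clip2, Clip4, Dpysl4, Nefl and Nefm. Dcx, which encodes doublecortin, the MAP of migrating neuroblasts, reached at most 25.9 in control cells and 45.5 with the Tmem132a siRNA over its 4 probe sets. Nefl and Nefm, the light and medium neurofilament subunits, reached 19.6 and 2.3 in control cells, and 27.4 and 13.1 with the Tmem132a siRNA. These levels are too dim to compare. Of the 55 member probe sets below the filter, 37 (67.3%) had the higher signal on the Tmem132a siRNA array. The same held for 56.5% of all 22518 probe sets below the filter.

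Most members differed little. Among the 48 genes, 2 were at least 2-fold higher with the Tmem132a siRNA (4.17%), Stmn4 and Tubd1, against 2.10% of all 10678 genes past the filter. At least 2-fold lower were 0 members, against 2.44% of all genes. Within 1.5-fold lay 43 members (89.6%), against 82.1% of all genes. At 1.5-fold or more, 3 members were higher (Stmn4, Tubd1, Map9) and 2 were lower (Nes, Mapre1), with 8.83% and 9.10% of all genes past these sizes. Shares this close to the background say nothing particular about the members. Mapre1, Nes and Map9 fell short of 1.5-fold under some of the alternative settings given below.

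The ratios of the members past the filter lay mostly on 1 side of 0. A ratio below 0 was found for 34 of 48 members (70.8%), against 48.2% of all genes, and the median was -0.11 for the members and 0.02 for all genes. With no filter, 31 of all 60 members (51.7%) were below 0, 28 above it and 1 at exactly 0. Of all 18193 genes, 7666 (42.1%) were below 0, 9038 above it and 1489 at exactly 0. Probe sets with both signals under the floor get a ratio of 0, so these shares below 0 are not directly comparable. The lean to 1 side was smaller once dim probe sets were counted. These belong to the members without a value and also to members past the filter. Some of the latter changed side, such as Tubb4b (-0.15 with the filter, 0.65 without it). Most of these differences were small. The middle range, from the 25th to the 75th percentile, ran from -0.34 to 0.02 for the members and from -0.26 to 0.28 for all genes. Member genes were often bright, and 40 of the 48 had a brightest probe set at or above the 75th percentile of all probe sets (462.8). Among these 40 the median was -0.08, against 0.02 for the 6850 genes of the same brightness, and 27 (67.5%) were below 0, against 47.7%. In a bulk sample, fewer cells with a transcript and less of it per cell cannot be told apart. The neuroblast markers, which include the member Stmn2, were also mostly below 0. Their part in the members' ratios was not tested.

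**Figure D1:**
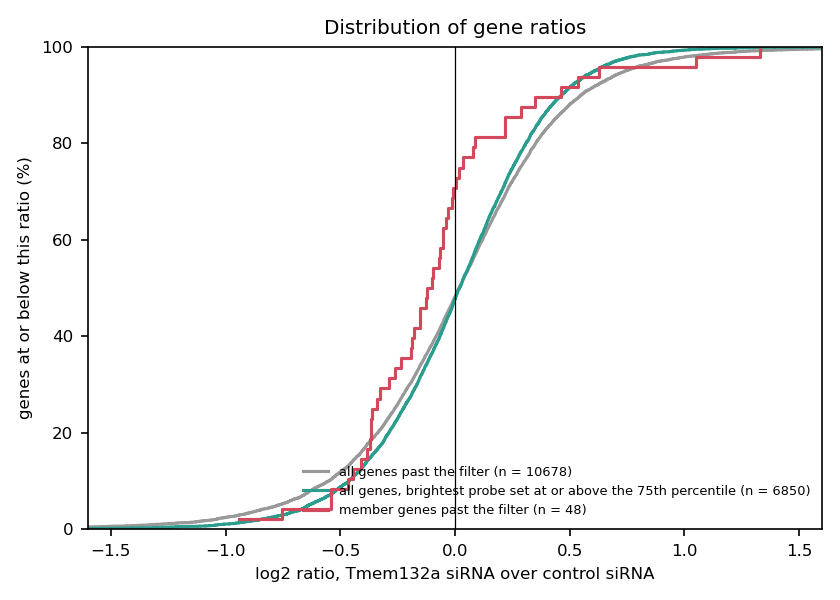
Cumulative share of genes (vertical axis, percent) at or below each log2 ratio (horizontal axis, Tmem132a siRNA over control siRNA) for the 48 members, all 10678 genes past the filter and the 6850 genes with a bright probe set. The curve of the members past the filter stands above the others around 0, where 70.8% of members and 48.2% of all genes lie below 0, and meets them at both ends.

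Upstream sequence is shown for 3 of the 5 members that differed at least 1.5-fold. Of the 60 members, 40 had an entry in the RefSeq promoter table (build GRCm38.p6), and Stmn4 had none. The windows are the 250 bases before the annotated start, 5′ to 3′ on the gene's strand. They are those of Mapre1 and Nes, lower by their gene ratios, and of Map9, higher by its gene ratio. The Nes probe sets past the filter disagreed in direction (-2.36 and 0.48). The printed windows overlap no annotated gene. Map9 has 2 starts in the table, and its second window, which overlaps Map9 itself, is not printed. The window of Tubd1 overlaps Rps6kb1 and is not printed either. Capitals mark matches, on either strand, to motifs chosen after the values were seen: CCAAT is the CCAAT box, TATAAA a form of the TATA box, GGGCGG the GC box and CACGTG a form of the E-box.
Mapre1 upstream window (chr2:153741037-153741286, + strand): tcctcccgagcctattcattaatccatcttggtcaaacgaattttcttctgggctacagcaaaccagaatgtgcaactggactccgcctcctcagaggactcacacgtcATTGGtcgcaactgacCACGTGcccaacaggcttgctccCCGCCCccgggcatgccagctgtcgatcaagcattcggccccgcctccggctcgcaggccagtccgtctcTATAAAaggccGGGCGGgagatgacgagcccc
Nes upstream window (chr3:87970843-87971092, + strand): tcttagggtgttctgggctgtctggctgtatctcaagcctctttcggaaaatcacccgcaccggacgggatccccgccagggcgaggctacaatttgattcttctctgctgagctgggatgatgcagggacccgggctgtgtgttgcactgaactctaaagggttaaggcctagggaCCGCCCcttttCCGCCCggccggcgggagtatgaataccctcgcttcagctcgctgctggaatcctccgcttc
Map9 upstream window (chr3:82357822-82358071, + strand): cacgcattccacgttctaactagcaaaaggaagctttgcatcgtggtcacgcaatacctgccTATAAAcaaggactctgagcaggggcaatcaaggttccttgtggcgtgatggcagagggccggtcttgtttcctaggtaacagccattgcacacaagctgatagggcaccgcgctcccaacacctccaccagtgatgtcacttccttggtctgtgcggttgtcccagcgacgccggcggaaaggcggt
Mapre1 held 1 CCAAT box, 1 TATA box, 2 GC boxes and 1 E-box. Nes held 2 GC boxes, the printed window of Map9 held 1 TATA box, and no matches shared bases. The second window of Map9 held 1 CCAAT box and 0 TATA boxes, and that of Tubd1 held 0 matches to the 4 motifs. Of all 32851 windows of this length, 33.8% held the CCAAT box, 12.4% the TATA box, 32.7% the GC box and 6.02% the E-box. Of the 50 windows of members, 16 held the CCAAT box, 8 the TATA box, 22 the GC box and 3 the E-box. A match describes letters only and is not a binding site.

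Stmn4 stood apart from the other stathmins. Stmn4, a neuronal stathmin, was read by 1 probe set, 1418105_at, whose signal went from 1522.1 in control cells to 3830 with the Tmem132a siRNA, a 2.52-fold difference (log2 ratio 1.33). The other stathmins were lower, all of them under 1.5-fold. Stmn2, which encodes the growth cone protein SCG10, went from 16953.2 to 12985.8 on its brighter probe set and from 2849.8 to 2003.6 on the other (gene ratio -0.45). Stmn1, the stathmin of dividing cells also called oncoprotein 18, went from 26602.8 to 24111.3 and from 1410 to 916.7 (-0.38). Stmn3, also known as SCLIP, went from 15232.8 to 13908.7 and from 3580.1 to 3021.2 (-0.19). The 6 probe sets of Stmn1, Stmn2 and Stmn3 thus all had the lower signal with the Tmem132a siRNA, while Stmn4 rests on a probe set that nothing else on the array repeats.

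None of the alpha-tubulins past the filter reached 1.5-fold, and their median was -0.29 over 3 genes. Tuba1a, a main alpha-tubulin of developing neurons, went from 28336.7 to 28453.5 (log2 ratio 0.01), read by a probe set of the x class, which can match related transcripts. Tuba4a went from 417.7 to 351.6 and from 327.9 to 236.2 (gene ratio -0.36). Tuba8 went from 672.3 to 630 and from 438.5 to 313.3 (-0.29). A further 7 probe sets listed a member symbol beside another gene, among them those of Tuba1b and Tuba1c, and are no members. The 6 of these that passed the filter had ratios between -0.22 and 0.21. Alpha-tubulin genes are close copies, so signals of single genes are uncertain.

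Of the beta-tubulins, 5 of 6 had a ratio below 0, and none reached 1.5-fold. Tubb5, the most widely expressed beta-tubulin, had probe sets that disagreed: the brighter went from 23267.2 to 22516.9 (-0.05) and the other from 5931 to 3206.4 (-0.89), for a gene ratio of -0.47. Tubb3, the neuron-specific isotype used as a marker of early neurons, went from 4083.4 to 3169.2 (-0.37). Tubb6 had a gene ratio of -0.34 over 2 probe sets that were both lower, and Tubb4b one of -0.15. The class II genes, abundant in developing neurons, did not share a direction. Tubb2b went from 2041.9 to 2814.6 (0.46), while the probe sets of Tubb2a gave 0.29 and -0.36. These are close copies too, and the probe set of Tubb2a that was higher is of the s class, which can match related transcripts.

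Among the genes of microtubule seeding and of the rarer tubulins, Tubd1, which encodes the centriolar delta-tubulin, was 2.07-fold higher. Its 1 probe set went from 120.9 to 250.6 (log2 ratio 1.05), close to the 2-fold line and dim. With 79.2 added to every signal in place of the floor the ratio was 0.72. Tubg1, the main gamma-tubulin, went from 5254.8 to 4385.6 (-0.26), and Tubg2, its paralog, from 146.4 to 100.6 (-0.54). Of the gamma-tubulin complex proteins, Tubgcp2 (-0.37) and Tubgcp6 (-0.41) were below 0, Tubgcp3 (0.29) and Tubgcp5 (0.35) above it, and Tubgcp4 (-0.05) near it. Tubgcp2 and Tubgcp3, both subunits of the small complex that holds gamma-tubulin, thus differed in opposite directions by less than 1.5-fold. Tube1, which encodes epsilon-tubulin, had a ratio of -0.01 over 3 probe sets.

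**Figure D2:**
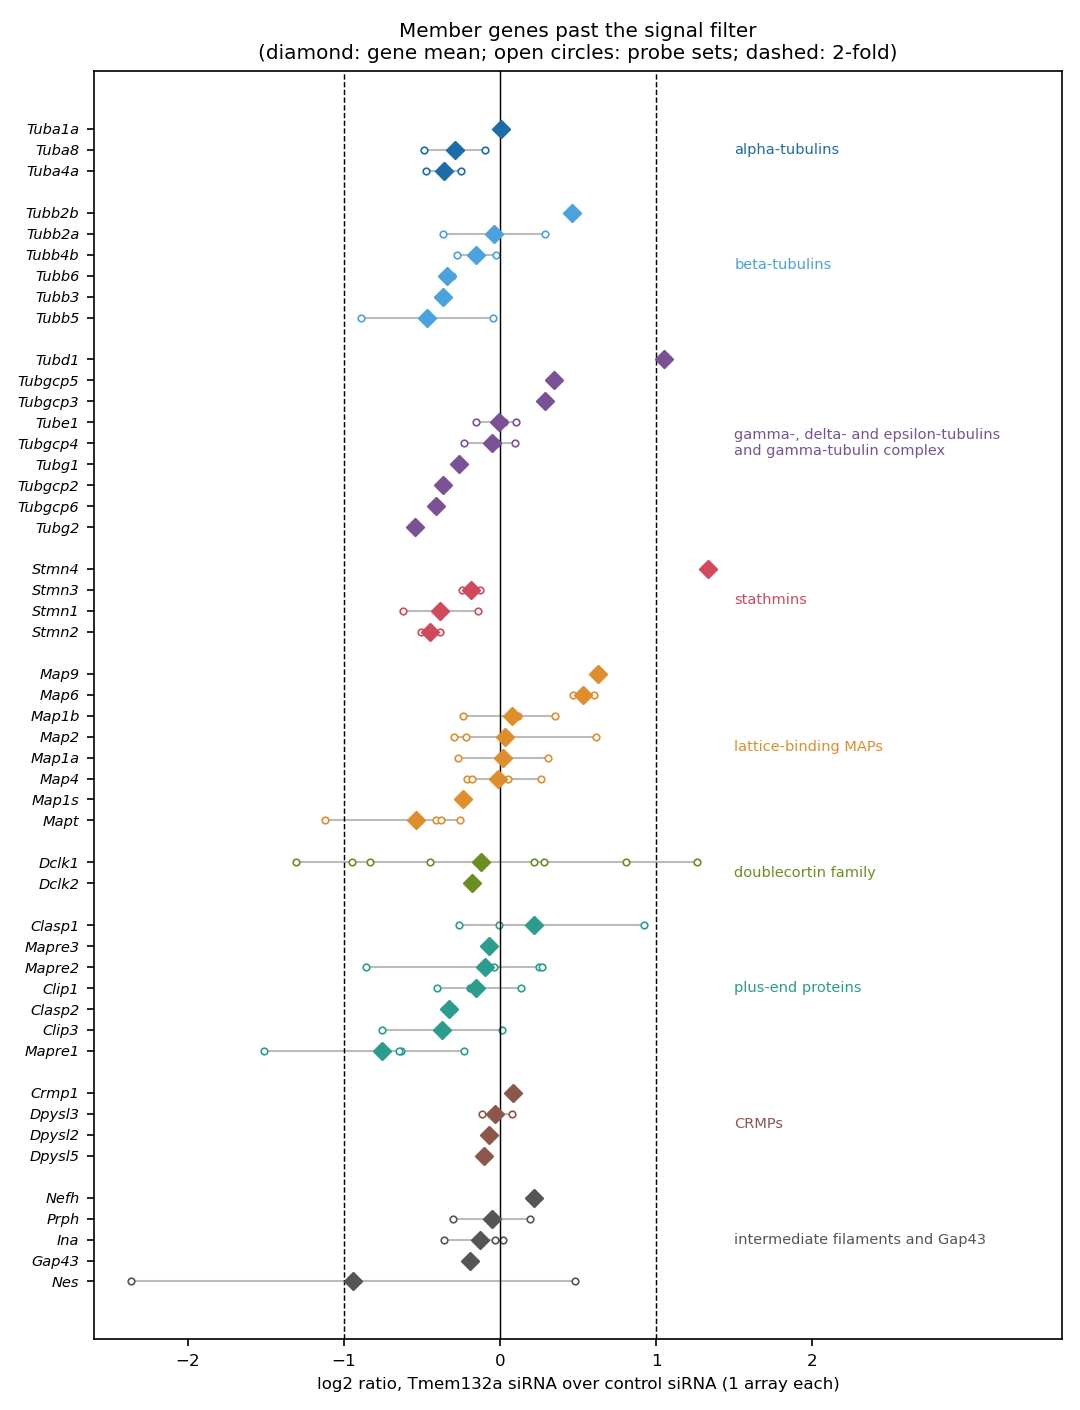
Log2 ratio (horizontal axis, Tmem132a siRNA over control siRNA, 1 array each) of the 48 member genes past the filter, ordered by role. Diamonds are gene means, open circles probe sets and dashed lines the 2-fold size, which Stmn4 (1.33) and Tubd1 (1.05) pass on the higher side, while Dclk1 and Nes have the widest spread of probe sets.

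The lattice-binding MAPs had a median of 0.03, with 5 of 8 genes above 0. Map9, which encodes a protein of the spindle and the centrosome, went from 1179.9 to 1824.6 on its only probe set past the filter (0.63). Map6, the STOP protein that protects neuronal microtubules from cold, went from 1074.1 to 1487.1 and from 233.7 to 354.1, so both probe sets were higher (0.53). Mapt, which encodes tau, the axonal MAP, was lower on 4 of 4 probe sets (gene ratio -0.54). The brightest went from 4624.4 to 3486.7 (-0.41), and the dimmest from 142.3 to 65.4 (-1.12). The large MAPs lay near 0, with Map1a at 0.02, Map1b at 0.08, the dendritic Map2 at 0.03 and the ubiquitous Map4 at -0.01. Their probe sets lay on either side of 0, as far apart as -0.30 and 0.62 for Map2. Map1s had a ratio of -0.23.

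The doublecortin family was read by Dclk1 and Dclk2. Dclk1, which joins doublecortin domains to a kinase domain, had a gene ratio of -0.12, but this mean covers 8 probe sets from -1.31 to 1.26. The lowest, 1436659_at, went from 725.7 to 293.6, and 1424271_at went from 492.9 to 277 (-0.83). The highest, 1450863_a_at, went from 229.7 to 551.7. That probe set is of the a class, which by design matches several transcripts of 1 gene. In all, 4 probe sets were lower and 4 higher, and the set of Dclk1 transcripts is known to include forms with and without the doublecortin domains. The RefSeq table lists 2 starts of Dclk1 on chromosome 3, 219364 bases apart, and the probe sets were not assigned to either. Dclk2 went from 360.2 to 318.1 (-0.18).

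The plus-end proteins had 6 of 7 genes below 0. Mapre1, which encodes the main end-binding protein and was 1.69-fold lower by its gene ratio (-0.76), was lower on 4 of 4 probe sets past the filter. The brightest, 1450740_a_at, went from 6987.7 to 4501.3 (-0.63), the next from 4500.8 to 3839.6 (-0.23), and the dimmer ones from 233.4 to 81.7 (-1.51) and from 96.6 to 61.8 (-0.64). Past the filter the direction was thus shared, and the size ranged over 1.29 log2 units. A further probe set of Mapre1, below the filter, went from 45.2 to 58.2. Its relatives did not follow this: Mapre3 went from 111.9 to 106.7 (-0.07), and the probe sets of Mapre2 gave -0.86, -0.04, 0.25 and 0.27. The lowest of Mapre2 went from 1445.7 to 797 and the brightest from 1910.2 to 2267.9.

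Of the proteins recruited to plus ends, Clip3 went from 1011.1 to 599.4 on its brighter probe set (-0.75) and from 511.8 to 516.8 on the other (0.01). Clip1, the founding CLIP protein, had a ratio of -0.15 and Clasp2 one of -0.33 over 2 probe sets that were both lower. Clasp1 had a gene ratio of 0.22, set by a dim probe set that went from 60.7 to 114.8 (0.92). The brightest probe set of Clasp1 went from 2558.1 to 2544.2 (-0.01) and the remaining one from 351.4 to 293.4 (-0.26).

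The collapsin response mediator proteins (CRMPs), which bind tubulin dimers and act in semaphorin signalling, lay close to 0, with gene ratios from -0.10 to 0.09. Crmp1 went from 5543 to 5884.8 (0.09), and Dpysl5 from 385.1 to 358.9 (-0.10). Dpysl2, which encodes CRMP2, the family member best known for promoting axon growth, had a ratio of -0.07, and Dpysl3 one of -0.03 over 3 probe sets.

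Among the intermediate filament genes, Nes, which encodes nestin, the filament protein of neural progenitors, was 1.92-fold lower by its gene ratio (-0.94), but its probe sets opposed each other. The probe set 1449022_at went from 299.8 to 58.2 (-2.36), the lowest ratio of any member probe set past the filter, and 1418289_at went from 107.7 to 150.6 (0.48). Nefh, the heavy neurofilament subunit, went from 3018.7 to 3513.7 (0.22). Prph, peripherin of peripheral neurons, had a ratio of -0.05, and Ina, internexin, one of -0.13 over 3 probe sets. Gap43, the growth cone protein, went from 1624.6 to 1423.1 (-0.19).

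**Figure D3:**
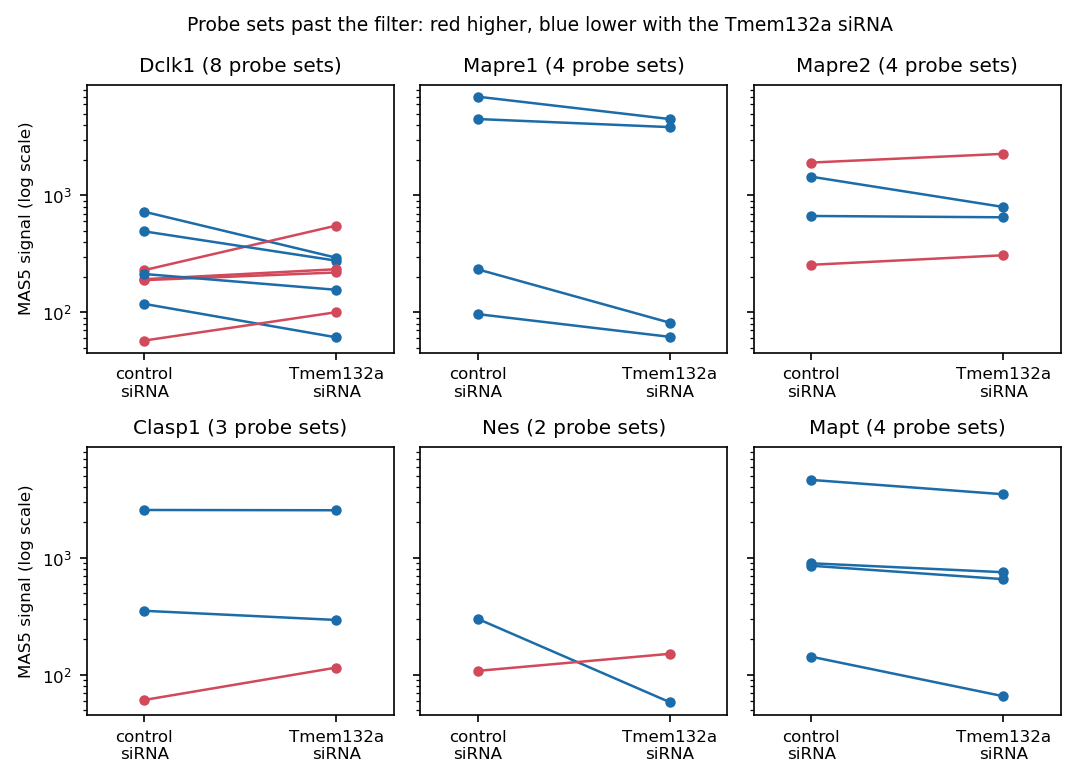
MAS5 signal (vertical axis, log scale) on both arrays for each probe set past the filter of Dclk1, Mapre1, Mapre2, Clasp1, Nes and Mapt; each line joins the signals of 1 probe set. All lines fall for Mapre1 (4 of 4) and Mapt (4 of 4), while those of Dclk1 (4 lower and 4 higher), Nes, Mapre2 and Clasp1 run both ways.

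Agreement of probe sets was the only measure of error within these samples, and it is technical. Over the 28 members with several probe sets past the filter, the SD of log2 ratios about the mean of their gene was 0.55, against 0.39 over 5072 genes of the whole table. Without Dclk1 and Nes, left out after their values were seen, the SD over 26 members was 0.36. Probe sets spanned more than 1 log2 unit in 5 of the 28 members (17.9%), namely Dclk1, Nes, Mapre1, Mapre2 and Clasp1, against 12.6% of all such genes. All probe sets were on 1 side of 0 in 12 members (42.9%), against 55.2% of all such genes: 11 were below 0 throughout, and Map6 alone was above it.

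**Figure D4:**
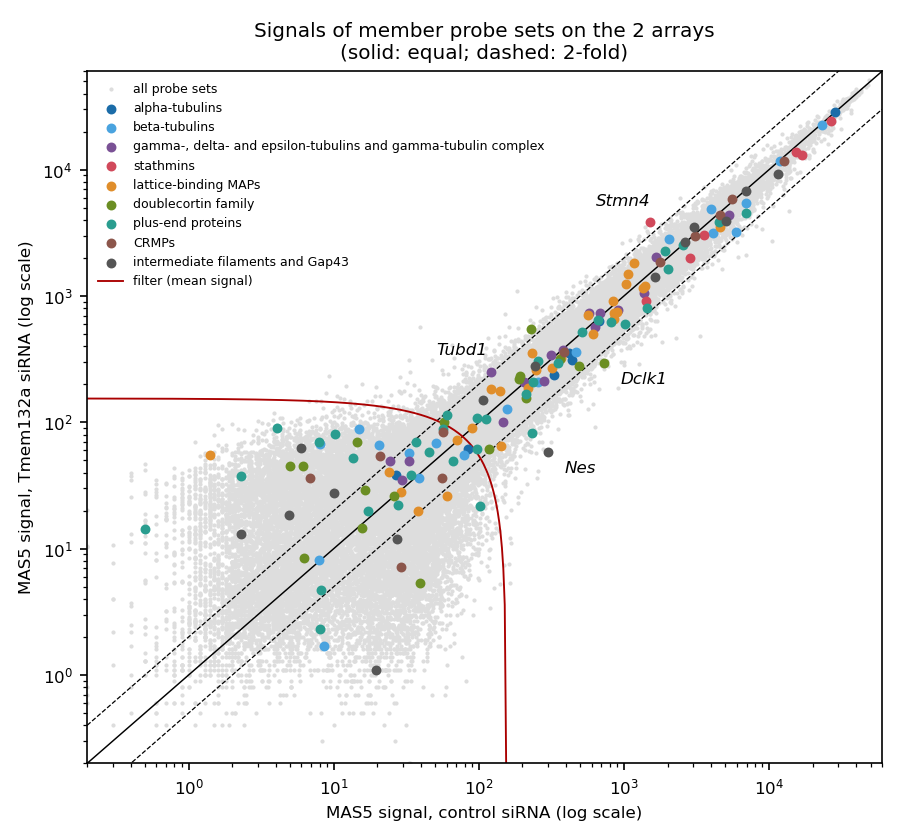
MAS5 signal on the control siRNA array (horizontal axis) and the Tmem132a siRNA array (vertical axis), both on log scales, for all 154 member probe sets, coloured by role, over all probe sets in grey. The 55 member probe sets inside the red filter line scatter widely on both sides, while most of the 99 outside it lie between the dashed 2-fold lines.

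Other genes of microtubule biology were taken from 5 lists. They hold no members, except that Crmp1 is in the growth cone list under its older symbol Dpysl1. Of 31 measured tubulin folding cofactors and modifying enzymes, 0 were 2-fold in either direction, with a median of -0.06. The lowest was Hdac6, the tubulin deacetylase, from 722.2 to 421.7 (-0.78), and the highest Ttll6, a polyglutamylase, from 83.1 to 120.7 (0.54). Of 30 severing, minus-end and nucleation genes, 0 were 2-fold, with a median of 0.10. Katnal2, a katanin-like protein, went from 200.2 to 404.6 on its brightest probe set (gene ratio 0.71). Tacc3, a spindle protein that works with the polymerase Ckap5, had a gene ratio of -0.74, where its probe sets ran from -1.53 to -0.09.

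Of 32 other microtubule-binding and plus-end genes, 1 was higher by 2-fold or more and 1 lower by that size, with a median of -0.01. Stim1, a calcium sensor of the endoplasmic reticulum that binds end-binding proteins, went from 197.2 to 378.9 on its brightest probe set (gene ratio 1.18). Gas2l3, a linker of actin and microtubules in dividing cells, had a gene ratio of -1.07 over 3 probe sets from -1.72 to -0.40. Of 27 kinases and phosphatases that act on these proteins, 0 were 2-fold, with a median of 0.08. Ppp2r2b, a neuronal subunit of protein phosphatase 2A, went from 209.8 to 404.4 (0.95), and Cdk5, the neuronal kinase of tau and CRMPs, from 501.9 to 275.8 (-0.86).

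The growth cone and other neuronal cytoskeletal genes had the lowest median of the 5 lists, -0.29 over 27 genes. Of these, 20 were below 0 and 0 were 2-fold. Over all genes past the filter the median was 0.02, and 48.2% were below 0. Without the member Crmp1, left out after its overlap was seen, the median was -0.30 over 26 genes, with 20 below 0. L1cam, the axonal adhesion molecule, went from 4241.8 to 2253.1 on its brightest probe set (gene ratio -0.95). Kif5b, a kinesin heavy chain, went from 3080.8 to 3626.7 on its brightest probe set (gene ratio 0.40). The lists were chosen with earlier results of these data known, so the direction of this list is no independent evidence.

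**Figure D5:**
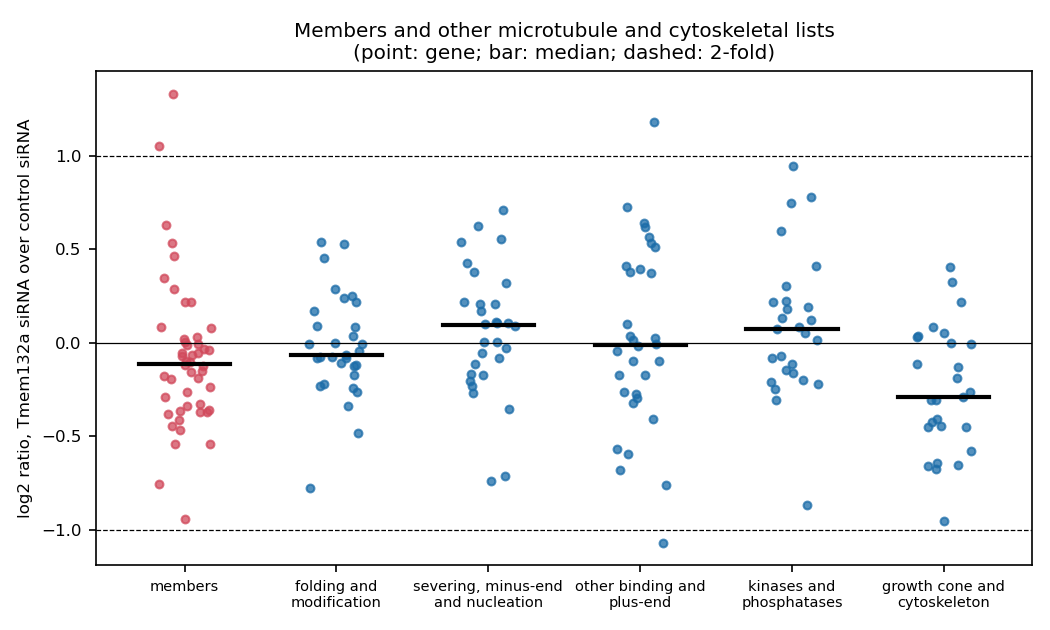
Log2 ratio (vertical axis, Tmem132a siRNA over control siRNA) of the 48 members and of the measured genes of 5 further lists (horizontal axis); points are genes, spread sideways for legibility, bars medians and dashed lines the 2-fold size. The medians run from -0.29 for the growth cone list to 0.10 for the severing and nucleation list, with the members at -0.11.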

How the data were processed

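Neuro2a total RNA was isolated with Trizol and labelled with biotin, per the labels' protocols. The authors deposited the linear signal intensity of each probe set, computed with MAS5 per the submitters' processing notes, of a version not stated. Sample titles gave the groups. Both arrays had a trimmed mean (2% from each end) of 500.003 and were set to the same mean. The 64 control probe sets among 45101 were dropped. Genes were named from the platform annotation where it gave 1 symbol. All 154 member probe sets had an Entrez identifier in the RefSeq gene table, and 0 symbols changed.

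Signals under the 20th percentile (14.5) were set to it before log2. Probe sets with a mean signal under the median (77.25) were left out, and a gene's value is the mean log2 ratio of the rest. With 1 array per group, a gene counted as higher or lower at 2-fold, and 1.5-fold is given as a smaller size. No interval applies, since the number of arrays limits precision. The procedure was also run on simulated data, with changes planted only in bright genes, alike in all their probe sets and with little noise. That run does not bear on dim genes or on genes whose probe sets disagree.

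Member values are named throughout. Both signals are given for members at 1.5-fold or more, the 2 largest ratios of each role group, members whose probe sets span more than 1 log2 unit, Stmn4 and Mapt, and others as examples. Of each list, up to 4 genes at 2-fold are named, or else the highest and lowest. Members and lists were chosen with earlier results of these data known. Alternatives changed the scaling, filter, floor and gene value. Some could not move a member's ratio. The trimmed means were equal, so signals as deposited repeated the main values. No member probe set past the filter had a signal under the floor, so leaving out the floor changed no member. Stmn4 has 1 bright probe set without x, s or a, so the filter and probe-set choices could not change its ratio either. Python 3.11.15, numpy 2.4.6, pandas 2.3.3, scipy 1.17.1, statsmodels 0.14.6 and matplotlib 3.10.9 were used.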

Additional observations from a re-analysis of the deposited data

How the results depend on the processing

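The fold counts and count below 0 of the members, the medians of members, role groups and lists, the 2-fold counts of the lists and the gene ratios were recomputed under 10 alternatives: signals as deposited, ratios centred on 0, quantile normalization, a loess fit (span 0.3), no filter, a stricter filter (462.8, the 75th percentile), signals with no floor or with 79.2 added, only the brightest probe set, and only probe sets without x, s or a in their suffix. The probe-set SD was recomputed under all of these but the brightest probe set, which leaves 1 value per gene. Marker sums, values within bright genes, counts below 0 in the lists, spans, shared sides, counts of dim probe sets and motif counts were not recomputed. Of 468 recomputed member gene ratios, 464 stayed on their side of 2-fold, but many could not change. Stmn4 ran from 1.29 to 1.34 and Tmem132a from -2.07 to -1.89. A ratio below 0 in every setting that gave a value was found for 25 members, and above 0 for 10. Tubd1 had no value under the 75th percentile filter or when x, s and a probe sets were dropped, and Nes had none under that filter. No paired analysis was possible because each group has 1 array, and for the same reason no replicate could be left out.

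With no filter, 5 members were 2-fold higher (Stmn4, Tubd1 and the dim Tubb1, Clip4 and Dcx), 1 was 2-fold lower (the dim Dclk3) and 10 were past 1.5-fold. Below 0 were 31 of 60 members, against 28 to 35 members under the other settings, over 40 to 48 genes. The members' median was then -0.010 and their probe-set SD 0.86, over dim probe sets. Medians were -0.038 for beta-tubulins, 0.28 for the doublecortin family, 0.056 for plus-end proteins, -0.019 for the severing and nucleation list, 0.10 for the other microtubule-binding list, -0.072 for kinases and phosphatases and -0.16 for the growth cone list. The 2-fold counts were 1, 1, 4 and 1 in the folding, severing, other binding and growth cone lists.

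With the 75th percentile filter, 1 member was 2-fold higher, 1 was 2-fold lower (Dclk1, from 1 probe set, -1.31) and 3 were past 1.5-fold. The probe-set SD was 0.33, the alpha-tubulin median -0.044, the doublecortin family value -1.31, the plus-end median -0.34 and the 2-fold count of the other binding list 0. With 79.2 added, 1 member was 2-fold higher, 3 were past 1.5-fold and the other binding list had 0. By the brightest probe set, 2 members were 2-fold lower, Dclk1 (-1.31) and Nes (-2.36). The medians were then -0.037 for beta-tubulins, -0.23 for the gamma-tubulin group, -0.74 for the doublecortin family and 0.16 for kinases and phosphatases, with 2-fold counts of 1 in the severing list and 0 in the other binding list. With x, s and a probe sets dropped, 1 member was 2-fold higher, and the severing and other binding lists had 2 and 1 genes at 2-fold. Leaving Dclk1 and Nes out of the probe-set SD, chosen after seeing the data, gave 0.36. Fewer or more probe sets entered under the filter and suffix settings, and the cause of the other changes was not tested.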
